A study of Mus musculus with 9 samples.

Results

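Collagens, laminins and the other large proteins of the basement membrane were followed in the lungs of mice that had received exosomes from B16-F10, a mouse melanoma line. The members were every annotated probe set of the array named for a collagen chain or a laminin chain, together with those for perlecan (Hspg2), the nidogens (Nid1 and Nid2), elastin (Eln) and fibrillin-1 (Fbn1). The annotation held 81 such probe sets for 50 of its 12393 genes: 36 collagen genes, 10 laminin genes, Hspg2, Nid1, Nid2 and Eln. No annotated probe set was named Fbn1. Of the 50 genes, 38 were detected well enough to be tested, through 57 probe sets.

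Lung RNA of C57BL/6 mice was measured on 9 single-colour Affymetrix arrays, 3 for each of 3 groups. Treated mice were injected in the tail vein with 10 µg of exosome protein and their lungs were taken 24 h or 48 h later. The remaining lungs were controls, for which no treatment is stated in the labels. The labels call the arrays biological replicates and name 3 mice per time point in an experiment done in triplicate, without saying if RNA was pooled. P-values here measure only how these 9 samples vary. Exosomes are secreted vesicles with a cargo of protein and RNA that other cells can take up. The design sets 24 h against control, 48 h against control and 48 h against 24 h. These comparisons ask whether exosomes in the circulation are followed by another matrix programme in the lung and whether the time matters. The samples were bulk tissue, in which fewer cells of a type and less RNA per cell cannot be told apart.

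Collagens are proteins built from 3 chains wound into a triple helix, with each chain encoded by its own gene. Fibrillar collagens such as types I, III and V form the tensile fibres of the alveolar wall, the airways and the vessels. Type IV collagen forms the sheet-like network of basement membranes, the thin layers under epithelium and endothelium. Laminins are cross-shaped trimers of an alpha, a beta and a gamma chain that bind the cell surface on one side and the basement membrane on the other. Nidogens and the heparan sulphate proteoglycan perlecan link the laminin and collagen networks. Elastin gives lung tissue its recoil.

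The Col4a1 and Col4a2 genes encode the chains of the most widespread type IV collagen and lie head to head, so that their promoters overlap. Their promoter windows are shown because both genes are followed as a pair in the results. Each window runs from 250 bases before to 50 bases after the annotated start and was taken from RefSeq with the assembly GRCm38.p6. That of Col4a1 lies at chr8:11312777-11313076 on the minus strand and that of Col4a2 at chr8:11312555-11312854 on the plus strand. Capitals mark the 78 bases that both windows hold, and each is written 5′ to 3′ on its own strand.
Col4a1: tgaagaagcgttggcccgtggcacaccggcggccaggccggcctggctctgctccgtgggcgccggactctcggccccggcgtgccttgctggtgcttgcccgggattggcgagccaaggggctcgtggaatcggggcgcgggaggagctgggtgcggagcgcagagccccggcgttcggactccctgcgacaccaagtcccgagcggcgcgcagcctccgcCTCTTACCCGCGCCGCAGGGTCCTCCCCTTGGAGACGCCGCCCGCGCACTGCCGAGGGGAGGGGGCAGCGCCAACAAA
Col4a2: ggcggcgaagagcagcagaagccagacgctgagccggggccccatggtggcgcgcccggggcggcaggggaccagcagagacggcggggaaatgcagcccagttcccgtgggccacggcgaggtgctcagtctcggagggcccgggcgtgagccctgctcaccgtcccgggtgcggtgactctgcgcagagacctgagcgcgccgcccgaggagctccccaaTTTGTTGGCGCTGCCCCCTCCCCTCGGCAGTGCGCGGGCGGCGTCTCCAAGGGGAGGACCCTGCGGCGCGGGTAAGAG
Both annotated starts lie in the shared stretch. A GC box (GGGCGG on either strand) lies in it at bases 260 to 265 of the Col4a1 window, which are bases 258 to 263 of the Col4a2 window. The Col4a2 window holds further GC boxes at bases 59 to 64 and 203 to 208 and a CCAAT box at bases 219 to 223, at the edge of the shared stretch, and the Col4a1 window a CCAAT box on the opposite strand at bases 106 to 110. Of the 38 tested genes, 27 had a promoter sequence in the table used. A GC box was present in 17 of the 27 (63.0%) and in 35.9% of 27025 mouse promoters of the same length. CCAAT was present in 11 of the 27 (40.7%) and in 37.9% of all promoters, and TATAAA in 3 of the 27 (11.1%) and in 14.2%, on either strand in each case. The 27 genes had passed the detection filter in lung, while the 27025 promoters were not filtered by detection. The shares therefore compare unlike sets and do not mark a trait of matrix genes. A match describes the letters only.

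Between 69.93% and 72.61% of probe sets were called present on an array, and median signals ran from 173.5 to 184.9 units. Of 9 listed markers of alveolar type 2 cells, the surfactant-producing cells of the lung, 8 had an annotated probe set and all 8 were tested. Markers of heart muscle were present as well, with 14 of 16 tested. Arrays with the same replicate number resembled each other across groups, and the arrays numbered 1 stood apart in some of the genes described here. The authors' table of values for the whole series carries other labels than the sample files. Its control columns hold the 48 h files, its 24 h columns the control files and its 48 h columns the 24 h files, with control numbers 1 and 2 exchanged. The names written inside the 9 files matched the labels of the files, which were used here, although the title of each 48 h sample also begins with a 24 h tag. With the table's labels the median log2 difference over the 38 genes was -0.124 for 24 h against control, -0.156 for 48 h against control and -0.0106 for 48 h against 24 h, so directions depend on which labels are right.

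The lung arrays detected the broad set of interstitial and basement membrane chains, while most chains known from cartilage were not detected. Of the 38 tested genes, 25 encode collagens and 9 laminins, and 35 were detected on all 9 arrays by the probe set read for them. For the other 3 that probe set passed through some groups only. Col15a1 was undetected on 1 array at 24 h. Col9a1, a chain of the cartilage collagen type IX, was detected on 1 array of control, 1 at 24 h and 3 at 48 h. The probe set read for Lamc3 was detected on 3 control arrays, 1 array at 24 h and 0 at 48 h. A second Lamc3 probe set was detected on all 9 arrays. Another 12 genes were not tested. Among them the cartilage collagens Col2a1, Col9a2, Col9a3, Col10a1, Col11a1 and Col11a2 were detected on 0 of 9 arrays, as were Col20a1, Col22a1, Col25a1 and Col26a1. Signals of these 12 genes ran from 0 to 45.4 units. Col19a1 was detected on 5 arrays at most and Lama1, the laminin alpha chain of early embryos, on 2. Of 12 cartilage markers, Acan, Comp, Matn3, Cnmd, Snorc and Sox9 were detected on 0 arrays by any probe set. Matn4 and Chad were tested, with log2 intensities of 9.39 to 10.37 and 7.93 to 8.78 over the 9 arrays.

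**Figure D1:**
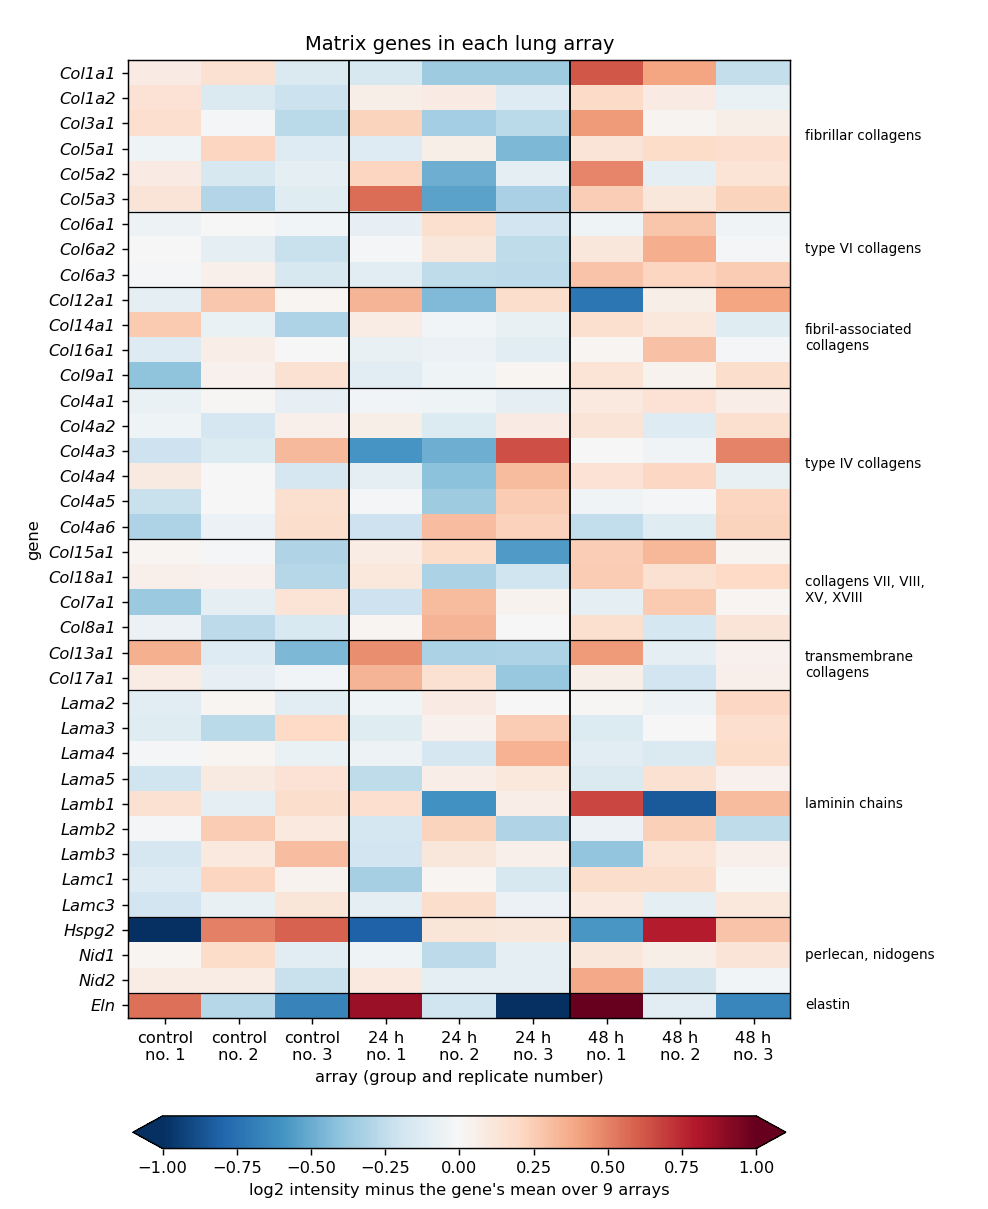
Log2 intensity of each of the 38 tested genes on each of the 9 arrays, as the difference from that gene's mean over the arrays, with genes in classes from top to bottom and arrays by group and replicate number from left to right. Red is above and blue below the gene's mean; the columns at 48 h are mostly red for collagens, and the rows of Eln and Hspg2 follow the replicate number.

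Collagen genes as a class stood higher 48 h after exosomes than in control lungs or at 24 h, by a small amount, and no single gene passed the test. The mean log2 intensity over the 25 collagen genes was 8.999, 8.985 and 8.935 on the control arrays, 9.049, 8.905 and 8.928 at 24 h, and 9.148, 9.117 and 9.12 at 48 h. All 3 arrays at 48 h lay above the other 6 arrays. The mean over the 9 laminin genes was 9.117, 9.232 and 9.305 in control lungs, 9.084, 9.199 and 9.24 at 24 h, and 9.217, 9.158 and 9.297 at 48 h. Laminin values of the 3 groups overlapped. These means describe the arrays and were given no test. Without the 3 arrays numbered 1 the median difference over the 38 genes was -0.05 for 24 h against control, 0.11 for 48 h against control and 0.14 for 48 h against 24 h.

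**Figure D2:**
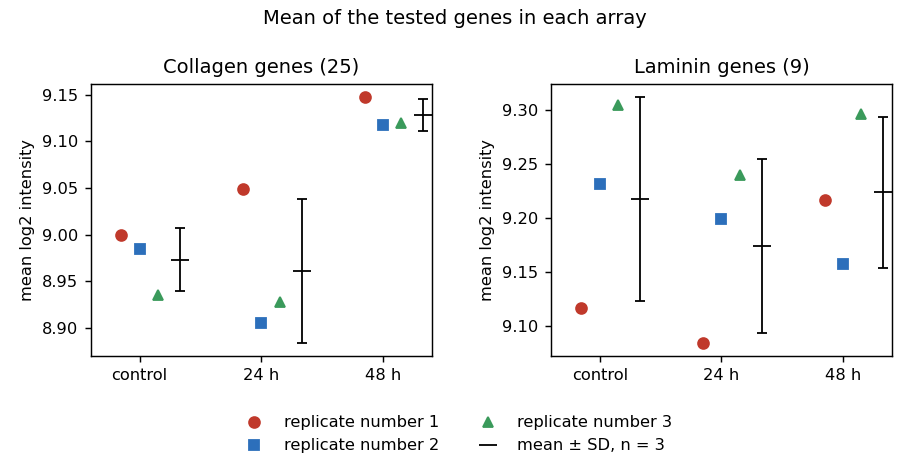
Mean log2 intensity of the 25 tested collagen genes (left) and the 9 tested laminin genes (right) on each array by group, with colour and shape for the replicate number and bars for the mean ± SD of 3 arrays. Collagen means at 48 h lie from 9.12 to 9.15, above the control and 24 h arrays, while laminin means overlap between groups.

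At 24 h the matrix genes differed little from control and, on the probe sets read, more of them were lower than higher. Of the 38 genes 14 were higher and 24 lower, with a median log2 difference of -0.01 against 0.002 over all 9281 tested genes, of which 50.67% were higher. The directions depended on the probe set. Of 19 further tested probe sets of 17 members, 10 had the opposite sign to the one read. The fibrillar collagen Col1a1 was lower at 0.803-fold (95% CI 0.588 to 1.10), and Col8a1, a short-chain collagen of vessel walls and other tissues, was higher at 1.21-fold (0.978 to 1.51). No gene passed. By limma with Benjamini-Hochberg adjustment 0 of 38 members and 0% of tested genes had an adjusted p under 0.05 (smallest over 15886 probe sets, adjusted p = 1). Of the members, 0 had an unadjusted p under 0.05, against 1.07% of all tested genes. With the replicate number as a block these were 0 and 2.92%. The 3 control arrays and the 3 arrays at 24 h did not overlap for 1 member that was higher, Col8a1, and for 1 that was lower, Col1a1, where 2.13% and 1.79% of all tested genes were so placed. For Col1a1 the gap was narrow, with 9.514 the highest array at 24 h and 9.525 the lowest control. On its second probe set these groups overlapped. In all 3 pairs of the same replicate number 4 members were higher and 6 lower, against 11.3% and 10.4% of tested genes.

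At 48 h most matrix genes were above control. Of the 38 genes 33 were higher and 5 lower, with a median log2 difference of 0.12 against -0.005 over all tested genes, of which 47.81% were higher. Collagens made up 23 of the 33, and 23 of the 25 collagen genes were higher (median 0.15). Laminins were mixed, with 6 of 9 higher and a median of 0.01. Among the 35 genes detected on all arrays, 30 were higher and 5 lower. Of the 19 further tested probe sets of members, 6 had the opposite sign to the one read. Again 0 of 38 members and 0% of tested genes passed limma's test (smallest adjusted p = 1). Before adjustment 1 member, Col6a3, had a p under 0.05, against 1.29% of tested genes. With the replicate block there were 4, namely Col6a3, Col6a2, Col15a1 and Col18a1, against 4.15% of tested genes, and the smallest adjusted p of any probe set was 0.998. Groups did not overlap for 4 higher members, Col6a3, Col18a1, Col4a1 and Col15a1, and for 0 lower ones, against 2.27% and 2.11% of tested genes. Of the 35 members detected on all arrays they did not overlap for 3. In the pairs of arrays with the same replicate number, 15 members were higher at 48 h in all 3 pairs and 1, Lamb2, was lower in all 3, against 11.6% and 12.3% of tested genes.

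Between the time points, too, most matrix genes were higher at 48 h. Of the 38 genes 31 were above their level at 24 h and 7 below, with a median log2 difference of 0.16 against -0.007 over all tested genes, of which 47.55% were higher. Of the 19 further tested probe sets of members, 3 had the opposite sign to the one read. All 6 fibrillar collagens were higher (median 0.30), as were all 3 type VI collagens (median 0.21) and perlecan with both nidogens (median 0.23). By limma 0 of 38 members and 0% of tested genes passed (smallest adjusted p = 1). Unadjusted p was under 0.05 for 4 members, Col6a3, Col1a1, Col18a1 and Col5a1, all higher at 48 h, against 1.49% of tested genes. With the block it was so for 8, the same 4 with Col3a1, Col5a2, Col15a1 and Lamc1, against 4.87% of tested genes, and 0 passed after adjustment (smallest adjusted p of any probe set 0.689). Groups did not overlap for 7 higher members, Col6a3, Col18a1, Col5a1, Nid1, Col4a1, Col16a1 and Col9a1, and for 0 lower ones, against 2.38% and 2.03% of tested genes. Col9a1 passed the detection filter through the 48 h arrays, where it is high, so that its place was partly set by the filter. Among the 35 genes detected on all arrays the groups did not overlap for 6, and 28 were higher and 7 lower. In all 3 same-numbered pairs 19 members were higher and 2, Col4a6 and Lama3, lower, against 12.4% and 15.5% of tested genes. The 48 h arrays enter both of the last comparisons and the 24 h and control arrays 2 comparisons each, so the 3 sets of values are not independent.

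**Figure D3:**
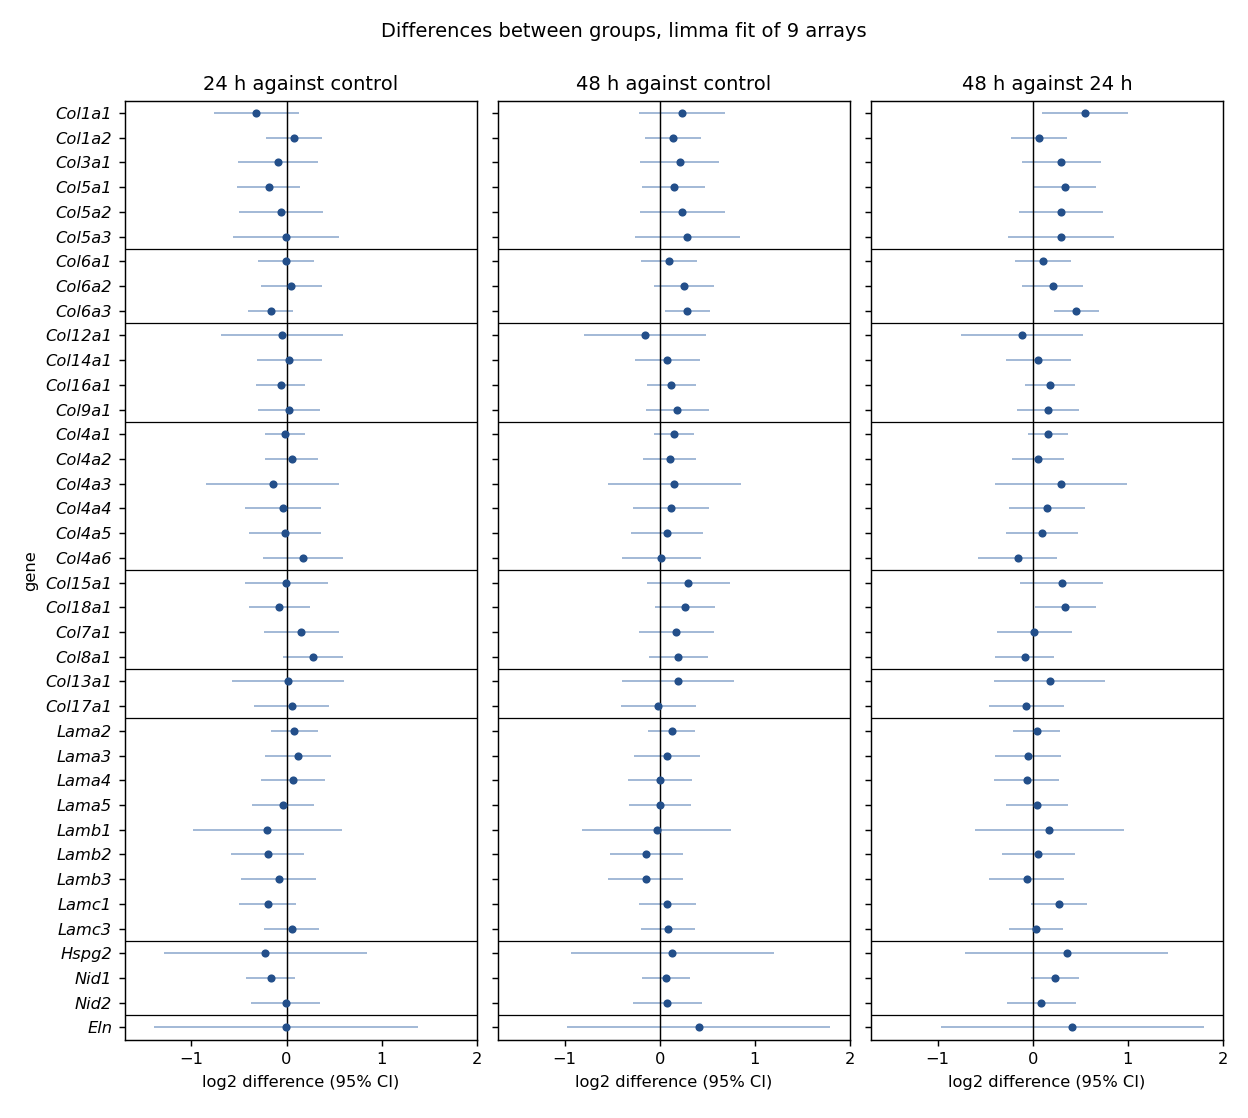
Log2 difference and 95% confidence interval of each of the 38 genes from the limma fit of 9 arrays without the replicate block, for 24 h against control, 48 h against control and 48 h against 24 h from left to right, with genes in the same class order as the heat map and lines between classes. Most points lie right of 0 in the panels with 48 h, and nearly all intervals cross 0; those of Col6a3 do not in either.

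Fibrillar collagens had the largest median difference between the time points among the classes with more than 1 gene, at 0.30. No class was tested against another. On the probe sets read, only Col5a1 of the fibrillar collagens had 24 h and 48 h arrays without overlap. This depended on the probe set, as second probe sets of Col1a1 and Col1a2 did not overlap between the times either. Their differences from control were 1 higher and 5 lower at 24 h (median -0.07) and 6 higher of 6 at 48 h (median 0.22). Col1a1, which encodes the alpha 1 chain of type I collagen, had log2 intensities of 9.75, 9.83 and 9.53 in control lungs, 9.51, 9.32 and 9.32 at 24 h, and 10.30, 10.07 and 9.44 at 48 h. The 24 h arrays lay below every control array, 2 of the 3 arrays at 48 h lay above all controls, and the other fell among those at 24 h. Col1a1 was at 1.46-fold at 48 h against 24 h (95% CI 1.07 to 2.00, limma adjusted p = 1) and at 1.18-fold against control (0.859 to 1.61). On the log2 scale the latter difference of 0.23 was 0.05 without 48 h replicate 1 and 0.48 without 48 h replicate 3, and the former, 0.55, was 0.37 and 0.80. A second Col1a1 probe set gave log2 differences of -0.34, 0.42 and 0.76 for 24 h against control, 48 h against control and 48 h against 24 h, beside -0.32, 0.23 and 0.55. On it the 48 h arrays stood at 9.43, 9.05 and 8.95, above the 8.61 to 8.81 of control and the 8.14 to 8.84 at 24 h.

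Col1a2, the partner chain of type I collagen, had log2 intensities of 12.51, 12.22 and 12.15 in control lungs, 12.42, 12.44 and 12.24 at 24 h, and 12.56, 12.45 and 12.30 at 48 h. On this probe set the groups overlapped, and the folds were 1.05 at 24 h (0.859 to 1.29) and 1.10 at 48 h (0.900 to 1.35), with 1.05 between the times. Its second probe set had a difference of -0.01 at 24 h, opposite in sign to 0.07, one of 0.34 at 48 h against control and one of 0.35 between the times. On it the 48 h arrays stood at 10.72, 10.39 and 10.40. They lay above the 9.93 to 10.30 of control and, narrowly, above the 10.04 to 10.37 at 24 h. Col3a1, whose product accompanies type I collagen in compliant tissue, measured 12.71, 12.52 and 12.27 in control lungs, 12.76, 12.20 and 12.27 at 24 h, and 12.97, 12.57 and 12.60 at 48 h. Replicate 1 was the highest array of each group, and the groups overlapped. Col3a1 was at 0.940-fold at 24 h (0.705 to 1.25), 1.16-fold at 48 h (0.868 to 1.54) and 1.23-fold between the times (0.924 to 1.64). Its second probe set differed by 0.49 at 48 h and by 0.54 between the times on the log2 scale. The type V chains, which start and limit the growth of type I fibrils, were higher at 48 h than at 24 h by 0.33 (Col5a1), 0.30 (Col5a2) and 0.29 (Col5a3) on the log2 scale. Col5a1 was at 0.878-fold at 24 h (0.698 to 1.10) and 1.26-fold at 48 h against 24 h (1.002 to 1.59). Its arrays stood at 8.66, 8.85 and 8.34 at 24 h and at 8.92, 8.97 and 8.96 at 48 h, without overlap. Its other probe sets differed by 0.55 and 0.26 between the times, without overlap on the former and with overlap on the latter. A second Col5a2 probe set was at -0.05 at 48 h against control, opposite in sign to 0.24.

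Type VI collagen forms beaded filaments between cells and the fibrillar matrix, and its alpha 3 chain gave the smallest p of all members in both comparisons with 48 h. Col6a3 had log2 intensities of 10.56, 10.62 and 10.41 in control lungs, 10.46, 10.32 and 10.31 at 24 h, and 10.86, 10.79 and 10.82 at 48 h. The 48 h arrays lay above all others, and 24 h and control overlapped. Col6a3 was at 1.22-fold at 48 h against control (95% CI 1.04 to 1.44, limma adjusted p = 1) and at 1.38-fold against 24 h (1.17 to 1.61, limma adjusted p = 1). With the replicate block the latter had an adjusted p of 0.779. At 24 h it was at 0.890-fold of control (0.758 to 1.05). Col6a2 was at 1.20-fold of control at 48 h (0.961 to 1.49), with arrays at 11.46, 11.71 and 11.33 against 11.35, 11.26 and 11.12. The groups overlapped by 1 array at 48 h, the lowest, which lay below the highest control. Col6a1 was higher by 0.10 at 48 h on the log2 scale. As Col6a3 had the largest t of the members between the times, its promoter window is given, from RefSeq (GRCm38.p6) at chr1:90843922-90844221 on the minus strand, with capitals for the bases from the annotated start onwards.
Col6a3: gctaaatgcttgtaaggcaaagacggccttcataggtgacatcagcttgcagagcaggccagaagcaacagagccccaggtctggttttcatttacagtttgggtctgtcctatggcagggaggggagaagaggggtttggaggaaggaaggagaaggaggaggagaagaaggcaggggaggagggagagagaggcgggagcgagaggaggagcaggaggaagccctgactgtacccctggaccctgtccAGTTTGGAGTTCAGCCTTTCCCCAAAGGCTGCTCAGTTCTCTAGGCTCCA
None of the 3 motifs named above was found in these letters on either strand.

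**Figure D4:**
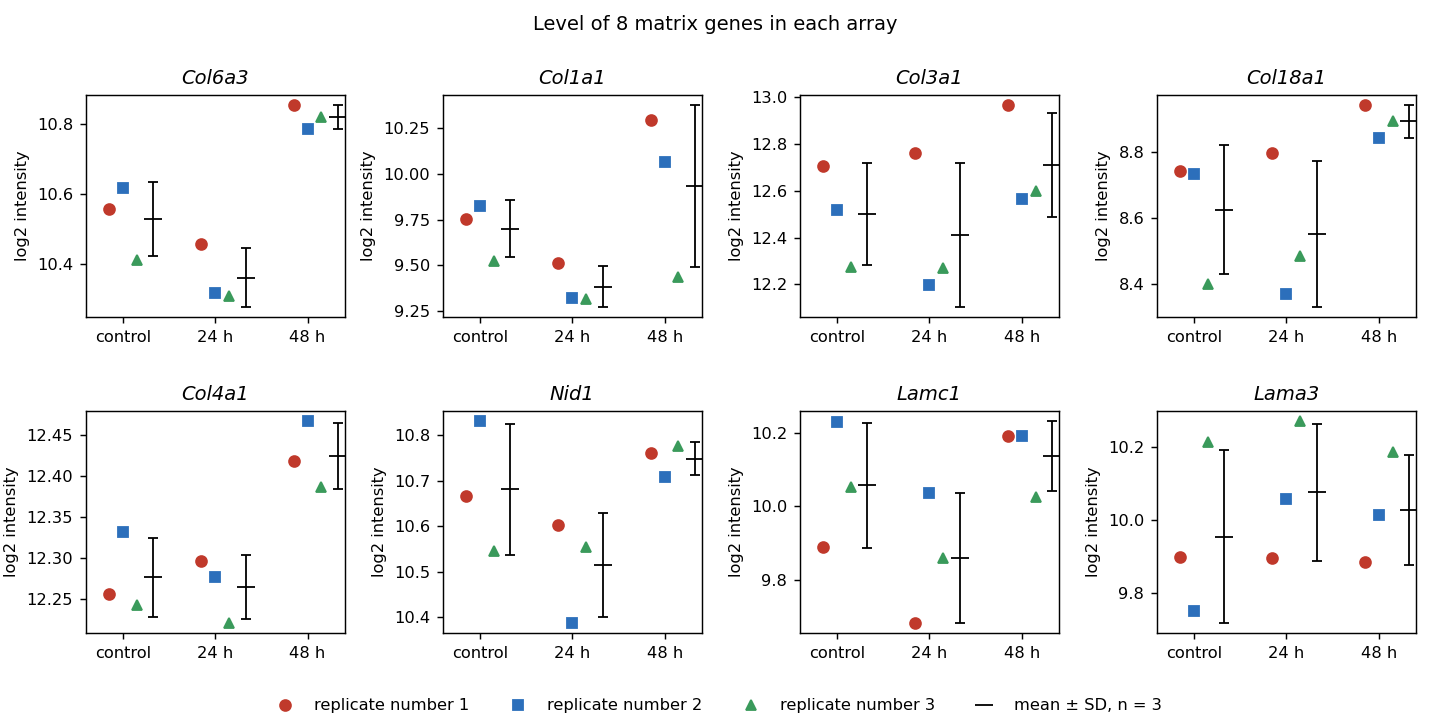
Log2 intensity of 8 matrix genes on each array by group (control, 24 h, 48 h), with colour and shape for the replicate number and bars for the mean ± SD of 3 arrays; each panel has its own scale. Col6a3, Col18a1 and Col4a1 at 48 h lie above every other array on the probe set shown, while Col3a1, Lamc1 and Lama3 overlap between groups. On second probe sets, which are not shown, Col18a1 and Col4a1 overlap between groups.

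Type IV collagens, the network of the basement membrane, were slightly higher at 48 h, with 6 of 6 above control (median 0.11) and 5 of 6 above 24 h (median 0.12). Col4a1 had log2 intensities of 12.26, 12.33 and 12.24 in control lungs, 12.30, 12.28 and 12.22 at 24 h, and 12.42, 12.47 and 12.39 at 48 h. Its 48 h arrays lay above the others by a narrow margin, and its range over all arrays was 0.25. On a second Col4a1 probe set the 48 h arrays stood at 10.91, 11.07 and 10.72. There they overlapped the 10.63 to 10.92 of control and the 10.65 to 10.81 at 24 h. Col4a1 was at 1.11-fold of control at 48 h (0.957 to 1.28) and 0.992-fold at 24 h (0.857 to 1.15). Its head-to-head partner Col4a2 measured 11.64, 11.51 and 11.73 in control lungs, 11.74, 11.54 and 11.76 at 24 h, and 11.81, 11.55 and 11.84 at 48 h. Here the groups overlapped and replicate 2 was lowest in each. Col4a2 was at 1.08-fold of control at 48 h (0.889 to 1.30) and 1.04-fold at 24 h (0.856 to 1.26). Of Col4a3, Col4a4 and Col4a5, chains of the mature network under alveolar and glomerular cells, the differences at 48 h from control were 0.15, 0.12 and 0.08 on the log2 scale. Col4a6 had the largest gap downwards between the times, at 0.897-fold (0.672 to 1.20), and was at 1.13-fold at 24 h (0.845 to 1.50). A second Col4a6 probe set had differences of -0.04 at 24 h and -0.18 at 48 h from control, opposite in sign to 0.17 and 0.02.

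Among the collagens at the edge of basement membranes, Col18a1 and Col15a1, whose C-terminal fragments endostatin and restin act on vessels, were higher at 48 h. Col18a1 had log2 intensities of 8.74, 8.73 and 8.40 in control lungs, 8.80, 8.37 and 8.49 at 24 h, and 8.94, 8.84 and 8.89 at 48 h. Every 48 h array lay above every other, and 24 h and control overlapped. It was at 1.20-fold of control (0.964 to 1.50) and 1.27-fold of 24 h (1.02 to 1.58). Its second probe set had 0.13 and 0.07 on the log2 scale for the same comparisons. On it the groups overlapped, with 8.14, 8.06 and 7.68 at 48 h and 7.75 to 7.88 in control lungs. Col15a1 was at 1.23-fold of control (0.909 to 1.67), with 6.65, 6.73 and 6.43 at 48 h and 6.42, 6.38 and 6.10 in control lungs, the lowest 48 h array only just above the highest control. Col7a1, the anchoring fibril collagen, was at 1.12-fold at 24 h (0.848 to 1.47). Col8a1 measured 6.54, 6.34 and 6.45 in control lungs, 6.63, 6.95 and 6.60 at 24 h, and 6.76, 6.42 and 6.73 at 48 h. It was the member with the highest t at 24 h, and its fold at 48 h against 24 h was 0.943 (0.760 to 1.17).

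Of the fibril-associated collagens 3 of 4 were higher at 48 h, both against control (median 0.10) and against 24 h (median 0.11), and of the transmembrane collagens 1 of 2. Col12a1, a fibril-associated collagen, was the lowest member at 48 h against control at 0.897-fold (0.576 to 1.40) and was at 0.925-fold of 24 h (0.593 to 1.44). Its 48 h arrays were far apart at 5.10, 5.88 and 6.22, of which the first was the lowest and the last the highest of the 9. The other members of that class, Col14a1, Col16a1 and Col9a1, differed from control by 0.08, 0.12 and 0.19 at 48 h. Col9a1 passed the detection filter through the 48 h arrays alone, so its place among the higher genes was partly set by the filter. A second Col14a1 probe set was at -0.09 at 48 h against control, opposite in sign to 0.08. Col13a1, a transmembrane collagen, was higher at 48 h by 0.20 against control, in 3 of 3 same-numbered pairs, and by 0.18 against 24 h, in 2 of 3. Col17a1, the hemidesmosome collagen of epithelial cells, was at 0.991-fold at 48 h (0.754 to 1.30) and 0.955-fold between the times (0.727 to 1.26).

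Laminin chains showed no shared difference between groups. At 24 h 4 of 9 were higher and 5 lower (median -0.04), at 48 h 6 higher and 3 lower (median 0.01), and between the times 6 higher and 3 lower (median 0.04). Lamc1, the gamma chain of most laminins, had log2 intensities of 9.89, 10.23 and 10.05 in control lungs, 9.68, 10.04 and 9.86 at 24 h, and 10.19, 10.19 and 10.03 at 48 h. It was lower at 24 h than control in each same-numbered pair and higher at 48 h than at 24 h in each, while the groups overlapped. Lamc1 was at 0.872-fold at 24 h (0.709 to 1.07), 1.06-fold at 48 h (0.860 to 1.30) and 1.21-fold between the times (0.986 to 1.49). Lamb1, its usual partner, spread widely, with 10.25, 9.99 and 10.27 in control lungs, 10.26, 9.48 and 10.16 at 24 h, and 10.76, 9.25 and 10.41 at 48 h. Replicate 2 was the lowest array in each group. Lamb1 was at 0.868-fold at 24 h (0.504 to 1.50), 0.979-fold at 48 h (0.568 to 1.68) and 1.13-fold between the times (0.655 to 1.94). Its other probe sets had differences of 0.03 and 0.07 at 24 h, opposite in sign to -0.20, and of -0.08 and -0.09 between the times, opposite to 0.17.

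Of the beta chains, Lamb2, found in vessel walls and at synapses, was at 0.907-fold of control at 48 h (0.696 to 1.18) and Lamb3, part of the epithelial laminin of hemidesmosomes, at 0.904-fold (0.688 to 1.19). Lama3, the alpha chain of that same laminin, was at 1.09-fold at 24 h (0.856 to 1.38), and Lama2, a chain of muscle and other mesenchymal basement membranes, at 1.06-fold (0.894 to 1.26). Lama4, an endothelial laminin chain, was at 0.956-fold at 48 h against 24 h (0.757 to 1.21), with a second probe set at -0.47 on the log2 scale for 48 h against control where the first was at 0.002. Lama5, the most widespread adult alpha chain, differed by 0.01 at 48 h, and Lamc3 by 0.08.

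The linkers of the basement membrane were lower at 24 h in 3 of 3 cases (median -0.17) and higher at 48 h in 3 of 3 (median 0.08). Nid2 was almost level with control at 24 h, at 0.994-fold (0.774 to 1.275), and stood at 1.06-fold at 48 h (0.824 to 1.36). Nid1 had log2 intensities of 10.67, 10.83 and 10.55 in control lungs, 10.60, 10.39 and 10.56 at 24 h, and 10.76, 10.71 and 10.78 at 48 h. Its 48 h arrays lay above those at 24 h and among the controls. Nid1 was at 0.891-fold at 24 h (0.747 to 1.06), 1.05-fold at 48 h (0.879 to 1.25) and 1.18-fold between the times (0.986 to 1.40). A second Nid1 probe set was at -0.16 for 48 h against control, opposite in sign to 0.07. On it the 48 h arrays, at 8.52, 7.57 and 7.86, overlapped those at 24 h, at 8.23, 7.45 and 8.03. Hspg2 measured 8.12, 9.63 and 9.71 in control lungs, 8.31, 9.24 and 9.23 at 24 h, and 8.54, 9.90 and 9.41 at 48 h. Its lowest array was replicate 1 in each group, and intervals were wide, at 0.858-fold for 24 h (0.411 to 1.79), 1.10-fold for 48 h (0.525 to 2.29) and 1.28-fold between the times (0.612 to 2.67). Eln measured 9.85, 9.01 and 8.63 in control lungs, 10.16, 9.10 and 8.21 at 24 h, and 10.88, 9.19 and 8.65 at 48 h. Replicate 1 was the highest array of each group. Its folds were 0.995 at 24 h (0.381 to 2.60), 1.33 at 48 h (0.509 to 3.46) and 1.33 between the times (0.511 to 3.48). With the replicate block the intervals at 48 h against control were narrower. On the log2 scale they were -0.03 to 0.85 for Eln and -0.24 to 0.50 for Hspg2.

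Neighbouring genes can be set side by side. Of 6 pairs of members that are neighbours in the annotation, 5 had both genes tested. Of these 5, each holds chains of the same collagen except Col3a1 with Col5a2. At 48 h against control the log2 differences were 0.15 and 0.11 for Col4a1 and Col4a2 on chromosome 8, 0.15 and 0.12 for Col4a3 and Col4a4 on chromosome 1, and 0.08 and 0.02 for Col4a5 and Col4a6 on chromosome X. They were 0.10 and 0.26 for Col6a1 and Col6a2 on chromosome 10, and 0.21 and 0.24 for Col3a1 and Col5a2 on chromosome 1. Both genes of each of the 5 pairs were thus above control on the probe sets read, as were 33 of all 38. Second probe sets of Col4a6 and Col5a2 lay below control, at -0.18 and -0.05. Those of Col4a1, Col4a5, Col6a2 and Col3a1 lay above it.

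Genes that make, cross-link, bind or signal to this matrix did not pass in any comparison. Of 23 tested genes of collagen biosynthesis, 9 were higher at 24 h, 13 at 48 h and 13 between the times (medians -0.02, 0.02 and 0.08). Loxl4, a cross-linking enzyme of the lysyl oxidase family, was the highest of them by t, at 1.30-fold at 24 h (1.06 to 1.59) and 1.23-fold at 48 h (1.01 to 1.51), but its second probe set was at 0.05 and -0.43 on the log2 scale. The lowest by t were the procollagen protease gene Tll1 at 24 h, at 0.785-fold (0.601 to 1.03), and the procollagen enhancer gene Pcolce2 at 48 h, at 0.940-fold (0.777 to 1.14). Of 23 elastic fibre and fibril partners, 7 were higher at 24 h, 10 at 48 h and 15 between the times (medians -0.04, -0.01 and 0.04). Smoc1 was at 1.16-fold (0.778 to 1.72) and Ltbp1, which stores latent TGF-beta in the matrix, at 0.846-fold (0.712 to 1.01) at 24 h. At 48 h Ltbp3, of the same family, was at 1.19-fold (0.953 to 1.48) with a second probe set at 0.0003 on the log2 scale, and the small proteoglycan gene Lum at 0.832-fold (0.540 to 1.28).

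Of 14 receptors of collagen and laminin, 5 were higher at 24 h, 7 at 48 h and 11 between the times (medians -0.08, 0.001 and 0.10). Sdc2, a heparan sulphate proteoglycan of the cell surface, was the highest by t, at 1.15-fold at 24 h (0.891 to 1.49) and 1.36-fold at 48 h (1.05 to 1.76). Its other probe sets were at -0.03 and 0.15 at 48 h, beside 0.44. The lowest were Lair1, an inhibitory collagen receptor of immune cells, at 0.900-fold at 24 h (0.741 to 1.09) and Ddr2, a collagen-activated kinase of fibroblasts, at 0.882-fold at 48 h (0.500 to 1.56). Of 16 TGF-beta signalling genes, 5 were higher at 24 h, 4 at 48 h and 8 between the times (medians -0.05, -0.07 and -0.02). Acvrl1, an endothelial receptor of the family, was at 1.12-fold (0.867 to 1.44) and Tgfb2 at 0.916-fold (0.769 to 1.09) at 24 h. Thbs1, an activator of latent TGF-beta, was highest by t at 48 h, at 1.47-fold of control (1.13 to 1.90) and 1.56-fold of 24 h (1.21 to 2.02, limma adjusted p = 1 for both), while Smad4 was at 0.903-fold of control (0.766 to 1.06). A second Thbs1 probe set was at 0.22 and 0.50 on the log2 scale for these comparisons, beside 0.55 and 0.64.

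Markers of matrix-producing cells were read beside the collagen values. Of 13 fibroblast markers, 3 were higher at 48 h than in control and 5 higher than at 24 h, with medians of -0.04 and -0.02, and their summed signal ran from 32103 to 34659 units in control lungs, 31792 to 33509 at 24 h and 31313 to 34137 at 48 h. Smooth muscle markers went the same way as the collagens between the times, as 8 of 8 were higher at 48 h than at 24 h (median 0.15) and 5 of 8 higher than control, without one passing the test. Their summed signal ran from 7604 to 10469 units in control lungs, 7224 to 10583 at 24 h and 8638 to 11590 at 48 h, with overlap. No smooth muscle marker with an annotated probe set was undetected throughout. Cardiac muscle markers were lower than control in 13 of 14 cases at 24 h and in 12 of 14 at 48 h (medians -0.24 and -0.21), with summed signals of 11941 to 18655 units in control lungs, 12256 to 15422 at 24 h and 8289 to 17360 at 48 h, and Myl2 and Nppb were detected on 0 arrays. Against 24 h, 0 of 5 mesothelial markers were higher at 48 h (median -0.14), 1 of 8 adipocyte markers (median -0.13) and 0 of 3 skeletal muscle markers (median -1.02). Summed mesothelial signals were 4430 to 6656 units at 24 h and 3888 to 5895 at 48 h, and adipocyte signals 5610 to 8596 and 6053 to 6517, with Lep and Ucp1 detected on 0 arrays. The skeletal muscle sum was 2878 units on 24 h replicate 1 and 179 to 579 on the other 8 arrays, with Myh2 detected on 0. Without 24 h replicate 1 the median difference of the 38 matrix genes between the times was 0.116. The part of these cells in the collagen values was not tested.

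Arrays with different replicate numbers differed in more matrix genes than arrays of different groups, for which 0 passed. With the group held constant, 10 of the 38 genes (26.3%) differed between replicate numbers at an adjusted p under 0.05 in limma's F test, against 14.9% of all tested genes. The 10 were Eln, Hspg2, Col13a1, Col4a3, Col5a2, Col3a1, Lamb3, Col4a6, Lamb1 and Col15a1. The median gap between the highest and lowest mean of the 3 numbers was 0.30 over the members and 0.25 over all tested genes, where the gap between group means was 0.18 and 0.12. With the labels of the series table, in which control numbers 1 and 2 are exchanged, 0 members and 0% of probe sets differed, and without the 3 arrays numbered 1, an alternative chosen after seeing the data, also 0 and 0%. The fit without the arrays numbered 1 has fewer arrays and so less power, and its count cannot show which number the differences came from. No source used here says what a replicate number stands for.

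Elastin and perlecan differed most, in opposite directions. Eln averaged 10.30 on the arrays numbered 1, 9.10 on those numbered 2 and 8.50 on those numbered 3 (adjusted p = 0.00808 by limma's F test). The 3 arrays numbered 1 lay above the other 6, by 2.83-fold on average. Hspg2 averaged 8.32, 9.59 and 9.45 (adjusted p = 0.00918), and its arrays numbered 1 lay below the other 6, which were 2.29-fold higher. A second Hspg2 probe set differed by -0.47 between the arrays numbered 1 and the others on the log2 scale (adjusted p = 0.0427). Both calls held in each of the 9 fits that left out 1 array, with adjusted p from 0.00958 to 0.0375 for Eln and from 0.0114 to 0.0405 for Hspg2. A second Eln probe set was not tested.

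**Figure D5:**
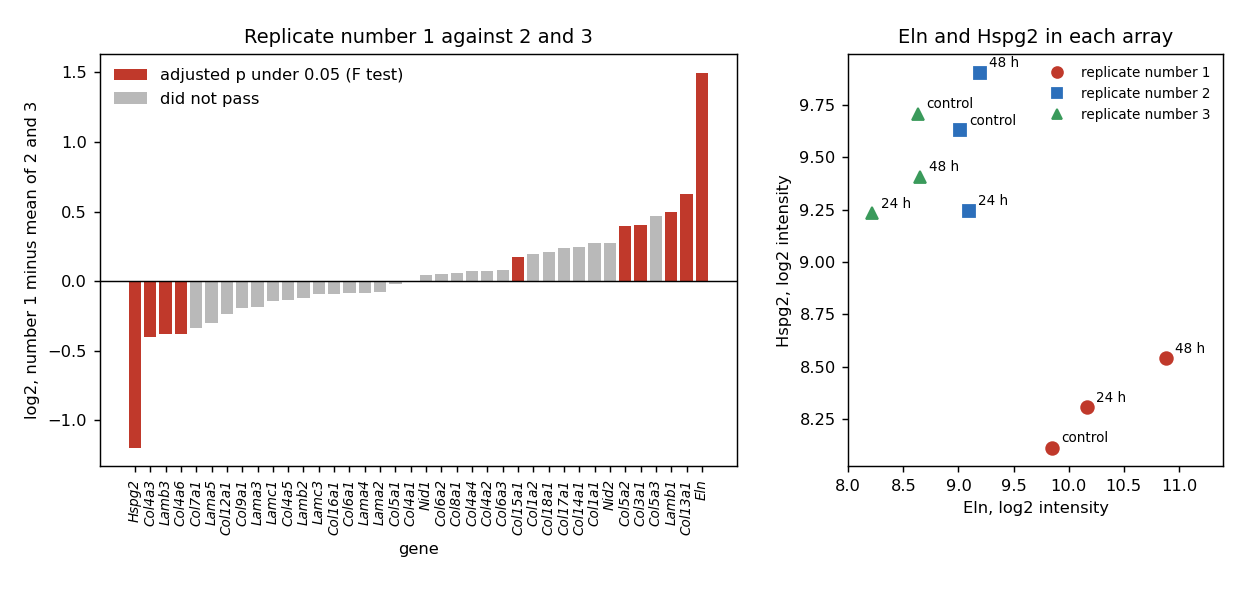
Left, the mean log2 intensity of each of the 38 genes on the 3 arrays numbered 1 minus that on the 6 others, ordered by size, in red where limma's F test over the replicate numbers passed and in grey where it did not. Right, Hspg2 against Eln on each array with the replicate number as colour and shape and the group as text; the 3 arrays numbered 1 lie alone at high Eln (9.85 to 10.88) and low Hspg2 (8.12 to 8.54).

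Collagens and laminins followed with smaller gaps. Col13a1 was 1.54-fold higher on the arrays numbered 1 than on the others (adjusted p = 0.0193), and all 3 lay above the other 6. Its call was lost without control replicate 1, 24 h replicate 1 or 48 h replicate 2, with adjusted p of up to 0.0856. Col3a1 was also above on all 3 (1.32-fold, adjusted p = 0.0376), and its second probe set differed by 0.89 on the log2 scale (adjusted p = 0.0151). Lamb3 (adjusted p = 0.0434) and Col4a6 (adjusted p = 0.0434) were below on all 3, with the others 1.30-fold higher for each gene. The remaining genes differed through another number. Col4a3 was highest on number 3, with means of 9.11, 9.16 and 9.87 (adjusted p = 0.0259). Lamb1 was lowest on number 2, with 10.42, 9.58 and 10.28 (adjusted p = 0.0468), while its other probe sets did not pass (adjusted p = 0.235 and 0.823). Col15a1 was lowest on number 3 (6.52, 6.56 and 6.12, adjusted p = 0.0491), and Col5a2 highest on number 1 and lowest on number 2 (10.31, 9.80 and 10.03, adjusted p = 0.0368).

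Most of these calls were lost in fits with 1 array fewer. Col15a1 was lost in all 9 fits (adjusted p from 0.0650 to 0.143). Col3a1 (0.0333), Lamb1 (0.0289) and Lamb3 (0.0492) were kept without control replicate 2 alone, and Col4a6 without 24 h replicate 2 alone (0.0447). In the other 8 fits each of these genes had an adjusted p of up to 0.145 for Col3a1, 0.123 for Lamb1, 0.150 for Lamb3 and 0.149 for Col4a6. Col5a2 was kept without control replicate 2 or 3 only (up to 0.123 elsewhere), and Col4a3 was lost in 5 fits, those without control replicate 1, 24 h replicates 1 and 2, and 48 h replicates 1 and 2 (up to 0.0705). Some genes were called by a second probe set only. Nid1 differed by 0.69 on it (adjusted p = 0.0119) where the first was at 0.04, and Col4a5 passed on it with an adjusted p of 0.0417. The number of members called ran from 2 to 8 when 1 array was left out, while the share of all tested probe sets ran from 2.51% to 16.5%, against 16.6% with all arrays.

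Markers of some other cell types followed the replicate number too, while most lists had few calls. Of all tested genes 14.9% passed. Of 8 smooth muscle markers 6 passed the same F test, and their summed signal was 10469 to 11590 units on the arrays numbered 1 and 7224 to 10452 on the others. Mesothelial markers passed in 4 of 5 cases (5605 to 6026 units against 3888 to 6656), and cardiac muscle markers in 6 of 14 (15422 to 18655 against 8289 to 17088). Macrophage markers passed in 3 of 9 cases and cartilage markers in 1 of 2. It was 1 of 13 for fibroblast, 1 of 12 for endothelial and 1 of 8 for alveolar type 2 markers. None passed of 6 alveolar type 1, 6 airway, 8 adipocyte and 3 skeletal muscle markers. Summed signals of alveolar type 2 markers (57826 to 58801 units), alveolar type 1 markers (33391 to 34886) and macrophage markers (23593 to 23809) were all lower on the arrays numbered 1 than on the others, which held 61577 to 63161, 36473 to 40141 and 24454 to 27090. The ratio of 3′ to 5′ signal of beta-actin, a measure of RNA integrity, was 1.16 to 1.22 on the arrays numbered 1 and 1.24 to 1.38 on the others. That of GAPDH was 0.816 to 0.908 and 0.740 to 0.956. The part of cell makeup and RNA integrity in the differences of Eln, Hspg2 and the collagens was not tested.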

How the data were processed

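Gene expression was measured in lungs of C57BL/6 mice on 9 Affymetrix arrays, 3 per group, with groups and replicate numbers read from the labels. Per the file headers, the deposited files hold 22690 probe sets, each with its signal intensity, a present or absent call and the p-value of that detection. The authors scaled the signal intensity to a common level: the mean without the outer 2% on either side was 500.1 to 500.2 for all 9. No source used here names the software or the summary method. The authors' deposited table of the series, in the same linear intensity unit, matched the files within 0.051 units under other labels, except at 273 probe sets of 1 column, and served as an alternative. Unused columns of per-sample values numbered 0. The labels name a whole-genome chip with more transcripts than the files have probe sets.

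Signals were raised by 16, taken to log2 and quantile normalised over all but the 64 control probe sets. Folds on this scale understate changes of dim genes. A probe set was tested if its deposited detection p-value was below 0.05 on all arrays of 1 group or more (15886 probe sets, 9281 genes). Probe sets were named by GEO's platform annotation, with symbols updated to GRCm38.p6: 20380 probe sets had 1 symbol, 691 several and 1606 none, and each gene is read from its probe set with the highest mean. Group differences came from a single two-sided model of 9 arrays (lmFit, eBayes; limma 3.58.1, R 4.3.3), with p-values adjusted by Benjamini-Hochberg over all tested probe sets at 0.05. An F test over replicate number used the same values with the group as a covariate. The fit was tested on simulated data with 200 changed probe sets. Its noise was independent between arrays, so it did not cover the likeness of same-numbered arrays. Array number limits the precision, since depth has no meaning for intensities.

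Same-numbered arrays deviated from their group means together (correlations of 0.275 to 0.651 over 9 pairs, against -0.561 to 0.308 over 18 pairs with different numbers), so the replicate numbers pair the samples. The fit with the replicate block is given where it moved a count. Folds and their intervals come from the fit without the block, so the intervals include the spread between replicate numbers. The median standard error of the members' log2 differences was 0.158 without the block and 0.109 with it. At 48 h against control the intervals of Col15a1, Col18a1 and Col6a2 lay above 0 with the block only. Alternatives were the offset, no quantile step, no detection filter, the mean of probe sets, the series table, single arrays left out, the arrays numbered 1 left out, 6 arrays only and the block. Named genes were Col1a1, Col1a2, Col3a1, Col4a1, Col4a2, Col6a3, Lamb1, Lamc1, Nid1, Hspg2 and Eln in every comparison, the 5 members with the highest and the 5 with the lowest moderated t, for replicate number the members that passed, and per partner list the genes with the highest and lowest t against control. Other members are given for their class. The members, classes, lists and tests were chosen with earlier results of these data known.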

Additional observations from a re-analysis of the deposited data

How the results depend on the processing

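The counts of members past the adjusted threshold were 0 in all 3 comparisons under each alternative, the replicate block and each array left out included. Medians over the 38 genes moved by more than the spread of array means (SD 0.0346) under the series table's labels and in these settings. For 24 h against control the median was -0.0469 without the 3 arrays numbered 1. For 48 h against 24 h it was 0.119 with offset 64. When 1 array was left out it ran from -0.0293 to 0.0216 for 24 h, across 0, from 0.0951 to 0.146 for 48 h and from 0.100 to 0.155 between the times, lowest without 24 h replicate 3. The replicate block left the medians as they were and changed no call besides the unadjusted counts given above. The count of members that differ by replicate number was 10 (16.6% of probe sets), 2 without the filter (4%), 7 with offset 1 (13.4%), 12 with offset 64 (21.8%), 8 without the quantile step (16.9%), 13 with probe sets averaged (18.1%), 0 with the series table or without the arrays numbered 1 (0% each), and 2 to 8 with 1 array left out.

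With the series table's labels, which set other files against each other, the medians were -0.124, -0.156 and -0.0106, and 39 of 53 named differences turned. For 24 h against control these were Col1a2 -0.142, Col4a2 -0.106, Col4a6 -0.0161, Col7a1 -0.173, Col8a1 -0.195, Lama2 -0.125, Lama3 -0.0746 and Lamb1 0.0314. For 48 h against control they were Col12a1 0.113, Col15a1 -0.303, Col17a1 0.0666, Col18a1 -0.341, Col1a1 -0.549, Col1a2 -0.0671, Col3a1 -0.301, Col4a1 -0.159, Col4a2 -0.0535, Col6a2 -0.208, Col6a3 -0.459, Eln -0.416, Hspg2 -0.355, Lamb3 0.0621, Lamc1 -0.278 and Nid1 -0.234. For 48 h against 24 h they were Col17a1 0.0535, Col18a1 -0.0749, Col1a1 -0.317, Col3a1 -0.0896, Col4a1 -0.012, Col4a6 0.172, Col5a1 -0.188, Col6a3 -0.168, Col8a1 0.28, Eln -0.00706, Hspg2 -0.222, Lama4 0.0665, Lamb1 -0.204, Lamc1 -0.198 and Nid1 -0.167.

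Of 424 values under the remaining alternatives 8 turned, with 0 across the threshold. Without the arrays numbered 1 they were Col12a1 (0.361 between the times, 0.0842 at 48 h), Col17a1 (0.0426 between the times), Hspg2 (-0.0127 at 48 h) and Lamc1 (-0.0324 at 48 h). The others were Col4a1 at 24 h without the quantile step (0.0151), Eln at 24 h with offset 64 (0.00315) and Nid1 at 48 h with probe sets averaged (-0.0469). Of the 32 named differences that kept 1 sign whichever array was left out, 22 moved by over 1.5 times in at least 1 such fit. Leaving out 1 array turned 37 of 477 values, with these ranges. At 24 h they were Col3a1 -0.265 to 0.0161, Col4a1 -0.0289 to 0.0154, Col4a2 -0.00439 to 0.122, Eln -0.51 to 0.465, Hspg2 -0.739 to 0.0879 and Lamb1 -0.351 to 0.0377. At 48 h they were Col12a1 -0.398 to 0.161, Col17a1 -0.0551 to 0.0686, Eln -0.244 to 0.871, Hspg2 -0.384 to 0.505, Lamb1 -0.341 to 0.413, Lamb3 -0.27 to 0.0169, Lamc1 -0.00476 to 0.166 and Nid1 -0.000664 to 0.143. Between the times they were Col12a1 -0.355 to 0.204, Col17a1 -0.275 to 0.0847, Col4a2 -0.016 to 0.145, Col8a1 -0.147 to 0.0261, Eln -0.237 to 0.918, Lama4 -0.171 to 0.0859 and Lamb1 -0.137 to 0.617. The cause of these moves was not tested.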
